A study of Tursiops truncatus with 28 samples.

Results

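In skin of free-ranging common bottlenose dolphins (Tursiops truncatus), 1486 nuclear loci spanned more than 100000 bases each and were read above 0 in every animal, with a mean level from 1 to under 100 FPKM. A locus was taken when it lay off the mitochondrial sequence, when its interval (end minus start) exceeded 100000 bases, when its mean over 28 libraries was at least 1 and under 100 FPKM, and when it was above 0 in all 28. FPKM is a count of mapped fragments scaled to transcript length and to the library total. Length, mean level and detection therefore chose these loci and are given below as a description. They made up 6.17% of the 24091 loci in the deposited table and 12.7% of the 11673 nuclear loci that met the same conditions on level at any length. Of 2460 nuclear loci over 100000 bases, 86 were at 0 in every library, 854 had a mean above 0 and under 1 FPKM, 12 had a mean of at least 100 FPKM, and 22 met the condition on the mean but were at 0 in at least 1 library.

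A very long animal gene is mostly intron, so the RNA polymerase crosses a long stretch that is spliced out before the mature message forms. Such genes take longer to transcribe in a single pass than compact genes do. In mammals many very long genes encode adhesion, matrix, cytoskeletal and signalling proteins, and introns of long genes often hold other, shorter genes. FPKM divides by the length of the spliced transcript and not by the interval, so a long interval does not by itself give a high or low FPKM. The loci carry positions and no gene name, none could be matched to a name, and no role is given to any of them. For the same reason skin marker genes could not be looked up to check the tissue.

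The libraries came from archived skin of 28 animals, each with its own field identity, sampled at Barataria Bay, Louisiana, with no treatment named. The July 2016 session gave 9 females, the June 2017 session 8 females and 3 males, and the September 2017 session 5 females and 3 males. The labels give no age. No male was sampled in 2016, and the year 2016 and the month of July cannot be told apart. Skin pieces mix several cell types, so fewer cells of a type and less RNA per cell cannot be told apart in any value below. Summed FPKM per library ran from 815690 to 1078077, and 17418 to 18259 loci were above 0. Read totals are unknown. Relative depths ran from 0.759 to 1.48. They were taken from the most frequent ratio of values above 0 between pairs of libraries, over 4754 low loci. June 2017 male 3 stood apart before any comparison: its 10 most abundant loci took 41.0% of summed FPKM, against 22.2% to 36.8% in the other 27 libraries.

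The long loci had a median interval of 155465 bases, with quartiles at 121492 and 230112 bases and a maximum of 1382155 bases. There were 54 over 500000 bases and 6 over 1000000 bases. Together they covered 300.3 Mb of the 938.3 Mb that all nuclear loci covered, or 32%. They lay on 122 scaffolds. Scaffold NW_017842794.1 held the most, 71 of its 330 loci within the level bounds (21.5%), and 10 scaffolds held 523. On the 71 scaffolds with at least 50 such loci, the long loci made up 0.917% to 33.3% of them, with a median of 12.0%.

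Many long loci contained or touched another locus. Another locus overlapped 629 of them (42.3%), a whole other locus lay inside 521, and 857 overlapped none. The share with an overlap was 20.5% for loci up to 5 kb, 19.2% for 5 to 20 kb, 25.3% for 20 to 50 kb and 33.8% for 50 to 100 kb. Within the long loci it ran from 37.2% at 100 to 150 kb to 57.6% over 300 kb. Where no other locus overlapped, the nearest one was a median of 10240 bases away. That distance rose with length in the other classes too. It was 2206 bases up to 5 kb, 2327 at 5 to 20 kb, 3568 at 20 to 50 kb and 6118 at 50 to 100 kb. How reads were assigned by strand is not stated, so reads of a long locus and of a locus inside it may have been split between them, and values of overlapping loci are uncertain to that extent.

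**Figure D1:**
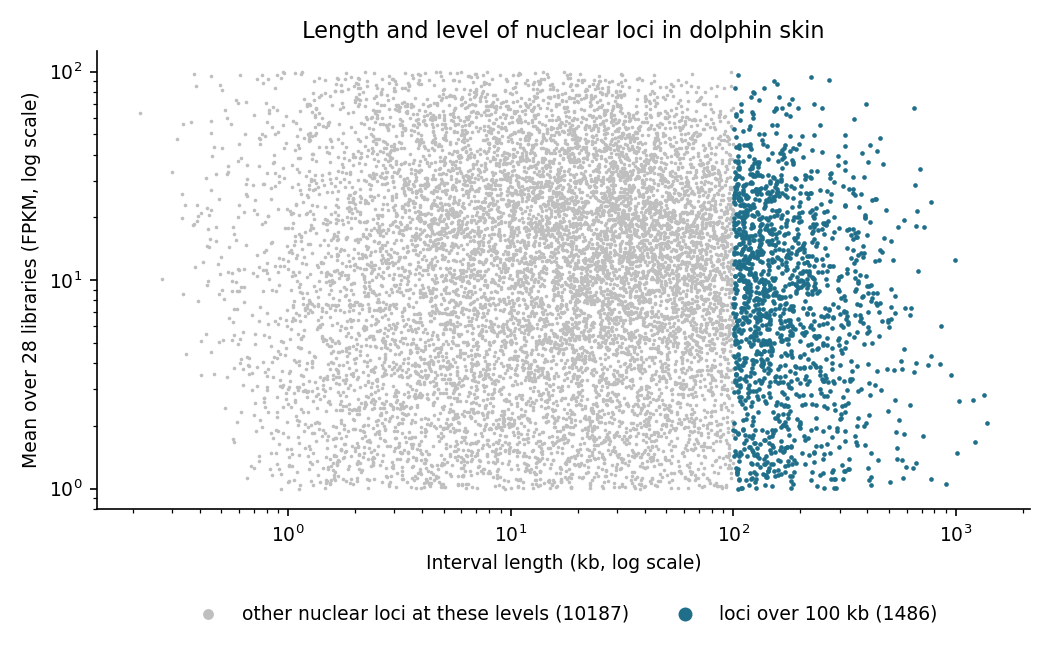
Interval length of each long locus in kb (horizontal, log scale) against its mean over 28 libraries in FPKM (vertical, log scale), with 1 point per locus and the other nuclear loci within the level bounds in grey. The long loci start at the length bound of 100 kb, and only 54 lie beyond 500 kb.

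The 3 longest loci were all near the lower bound of level. The longest, NW_017844144.1 from base 7365239 to 8747393, spanned 1382155 bases and measured 2.05 ± 1.40 FPKM (SD, n = 28), with a lowest library of 0.507, a median of 1.70 and a highest of 5.66 FPKM. NW_017844411.1 from base 5351064 to 6691460 spanned 1340397 bases and measured 2.80 ± 0.865 FPKM, from 1.32 to 5.02. NW_017842794.1 from base 75442584 to 76655054 spanned 1212471 bases and measured 1.67 ± 0.431 FPKM, from 0.911 to 2.89. Each of these 3 overlapped at least 1 other locus, and none was called in any comparison below. Across all 1486 loci, length and mean level had a Spearman correlation of -0.12. That is a description across loci, which share their libraries.

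Their level had a median of 8.53 FPKM, with quartiles at 3.71 and 17.8. The highest mean belonged to NW_017844458.1 from base 48928826 to 49033394, at 96.8 ± 14.6 FPKM (SD, n = 28) and from 66.2 to 131 FPKM. Next was NW_017842945.1 from base 2949036 to 3171954, at 94.7 ± 18.5 FPKM. At the lower bound, NW_017843983.1 from base 20400451 to 20505034 and NW_017842229.1 from base 3451988 to 3707124 each averaged 1.0 FPKM, with SDs of 0.633 and 0.423. The long loci took 1.58% to 2.62% of summed FPKM in a library, with a median of 2.17%. Just inside the length bound were NW_017843531.1 from base 6053064 to 6153072 (100009 bases, mean 7.67 FPKM) and NW_017842395.1 from base 4582830 to 4682863 (100034 bases, mean 1.91 FPKM). Just outside it were NW_017843484.1 from base 18985797 to 19085788 (99992 bases, mean 44.7 FPKM) and NW_017842814.1 from base 17013605 to 17113513 (99909 bases, mean 1.99 FPKM).

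The spread of the long loci between animals was among the smaller ones by length class. Their coefficient of variation over the 28 libraries had a median of 20.6%, with quartiles at 15.6% and 30.6%, and the highest library was a median of 2.32-fold above the lowest. Loci within the same level bounds had a median coefficient of 35.6% up to 5 kb (2470 loci), 25.6% at 5 to 20 kb (3369), 21.8% at 20 to 50 kb (2681) and 20.2% at 50 to 100 kb (1667). At 5 to 20 FPKM only, where level is more alike, the medians ran from 33.7% up to 5 kb to 18.7% in the long loci. Among the long loci the coefficient was 34.4% at 1 to 5 FPKM, 18.7% at 5 to 20 FPKM and 15.4% at 20 to 100 FPKM. It changed less with length, from 19.9% at 100 to 150 kb to 22.2% over 300 kb. These are descriptions with no test, since detection in every library and the bounds on the mean bear on the spread.

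**Figure D2:**
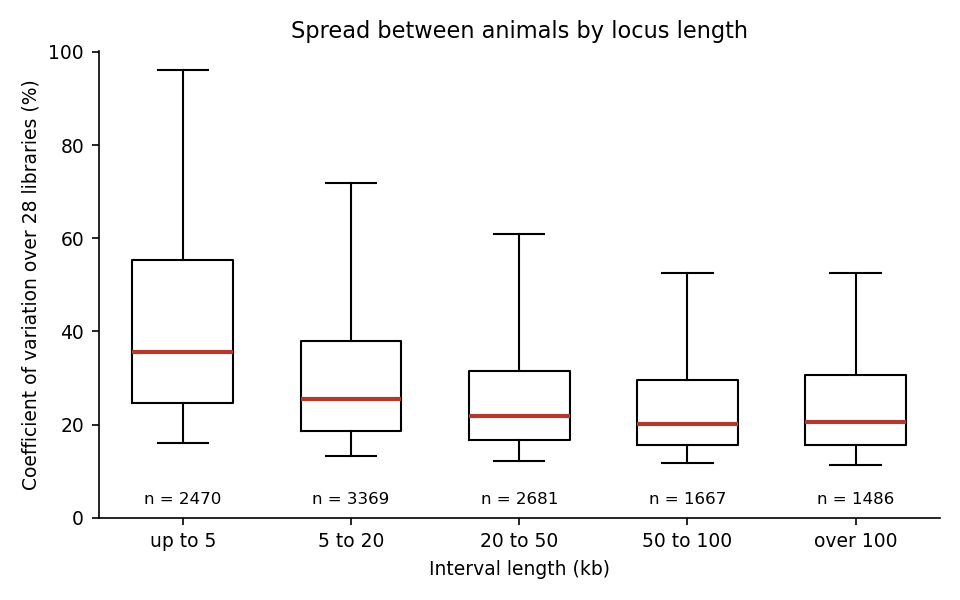
Coefficient of variation over 28 libraries in percent (vertical) for nuclear loci within the level bounds, grouped by interval length in kb (horizontal). Boxes span the quartiles with the median in red, and whiskers reach the 5th and 95th percentiles. The median is 35.6% for loci up to 5 kb and 20.6% for the long loci, close to the 20.2% at 50 to 100 kb.

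The steadiest long locus was NW_017842275.1 from base 8609070 to 8747334, at 27.6 ± 1.97 FPKM (SD, n = 28). Its lowest library was at 23.4 and its highest at 30.9 FPKM, a coefficient of 7.14%. That interval holds 2 other loci, with means of 0.0214 and 22.1 FPKM, so its values are uncertain as described above. NW_017842359.1 from base 4308392 to 4413986 followed at 7.78%, with 15.0 ± 1.2 FPKM. The most variable values each rested on a single library. NW_017843658.1 from base 11293520 to 11402187 had a coefficient of 330%, a median of 0.537 FPKM and 48.5 FPKM in June 2017 male 3. Without that library its coefficient was 101% and its highest value 3.98 FPKM. NW_017843107.1 from base 367149 to 509467 had a coefficient of 219%, a median of 18.5 FPKM and 455 FPKM in July 2016 female 9. Without that library the coefficient was 74.3% and the highest value 68.0 FPKM. The second of these holds 9 other loci, so its values are uncertain as described above. In July 2016 female 9 those 9 loci ran from 0 to 6.43 FPKM, and a sharing of reads with them was not tested.

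As a group the long loci were at nearly the same level in every library. Their median ran from 7.08 FPKM in June 2017 male 3 to 9.17 FPKM in September 2017 female 5. Taking each locus relative to its own mean over libraries on the log2 scale, the median deviation of the long loci in July 2016 ran from -0.06 to 0.10, with a middle value of 0.06. In June 2017 females it ran from -0.12 to 0.02 with a middle value of -0.03, and in the 3 June 2017 males from -0.23 to 0.05. In September 2017 it ran from -0.04 to 0.09 with a middle value of 0.02. The ranges of the sessions overlapped, and the lowest value was that of June 2017 male 3.

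**Figure D3:**
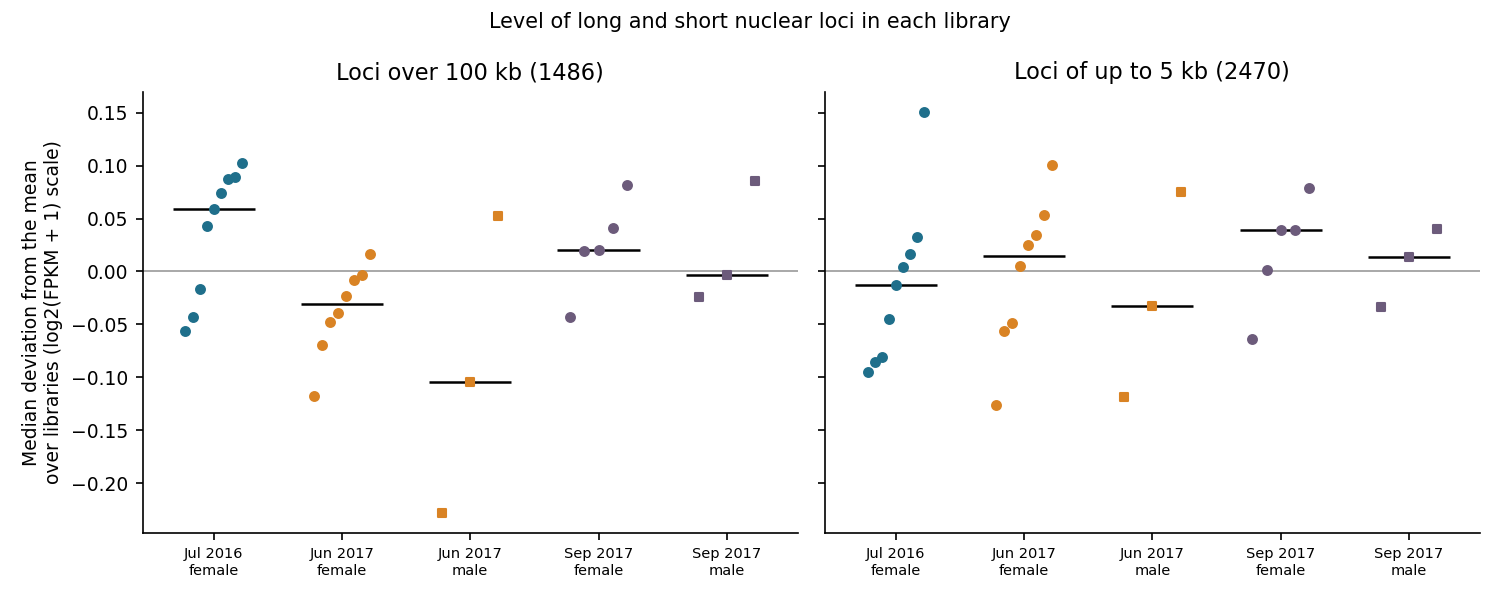
Median deviation of loci from their own means over libraries (vertical, log2(FPKM + 1) scale) by session and sex (horizontal), for the long loci (left) and the 2470 loci of up to 5 kb (right). Each point is a library, drawn in order of value within a group, and lines are group medians. Among the long loci the July 2016 females have a median of 0.06 and June 2017 male 3 is lowest at -0.23.

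Of the comparisons between sessions and between sexes, July 2016 against June 2017 gave the most calls among the long loci. Of the 1486 long loci, 91 rose and 23 fell in July 2016 relative to June 2017 (limma on log2(FPKM + 1) with session and sex, Benjamini-Hochberg adjusted p under 0.05 over 13192 loci). The 114 calls were 7.67% of the long loci, beside 7.24% of all loci tested, so the share called was near the background. Over all loci tested 5.06% were called higher and 2.18% lower. Of the calls, 79.8% were higher among the long loci and 69.8% among all loci. By length that share was 46.3% up to 5 kb, 52.3% at 5 to 20 kb, 74.9% at 20 to 50 kb and 84.4% at 50 to 100 kb. The lean to higher calls was therefore not particular to loci over 100 kb. With median-of-ratios scaling the long loci gave 65 higher and 31 lower calls (67.7% higher), and all loci tested 449 higher and 413 lower, or 6.53% called and 52.1% of calls higher. The median difference of the long loci was 0.08 on the log2 scale (quartiles -0.04 and 0.20) and that of all loci tested 0.04. Most called changes were under 2-fold on the log2(FPKM + 1) scale: the median called fold was 1.39, and 6 of the 114 passed 2-fold. Over all loci tested the median called fold was 1.38, and 73 of 955 calls passed 2-fold, so these sizes were near the background. The added 1 FPKM shrinks the folds of low loci.

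The largest rise was in NW_017843453.1 from base 2134108 to 2251028, a locus of 116921 bases that overlaps no other. It measured a lowest of 9.73, a median of 17.0 and a highest of 30.1 FPKM in July 2016, and 2.47, 5.40 and 12.7 FPKM in June 2017. The July 2016 libraries were mostly higher, but 2 June 2017 libraries, female 8 at 12.7 and male 2 at 10.6 FPKM, reached into their range. The difference was 1.42 on the log2 scale (SE 0.242, adjusted p = 0.00063, limma). Its September 2017 libraries lay between, from 8.44 to 18.2 FPKM with a median of 11.4.

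The second rise was in NW_017843875.1 from base 3847511 to 3981615, a locus of 134105 bases. It ran from 4.28 to 11.3 FPKM in July 2016 with a median of 6.88, from 1.23 to 4.07 FPKM in June 2017 with a median of 2.08, and from 0.887 to 4.25 FPKM in September 2017 with a median of 2.30. Every July 2016 library was above every library of both other sessions, by a narrow margin against September. The difference from June was 1.27 on the log2 scale (SE 0.200, adjusted p = 0.000328, limma). September minus July was -1.27 (SE 0.222, adjusted p = 0.00253, limma). These comparisons share the July 2016 libraries.

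With the pseudocount of 1 FPKM, the largest fall lay on the same scaffold, in NW_017843875.1 from base 11643476 to 11787646, a locus of 144171 bases. It ran from 4.42 to 13.6 FPKM in July 2016 with a median of 7.82, from 10.8 to 31.4 FPKM in June 2017 with a median of 19.7, and from 10.6 to 28.5 FPKM in September 2017 with a median of 16.0. The July range overlapped the lower end of both other sessions. July minus June was -1.21 on the log2 scale (SE 0.209, adjusted p = 0.000725, limma), and September minus July was 1.04 (SE 0.232, adjusted p = 0.0155, limma). The second of these calls was lost when only the libraries of July 2016 and September 2017 were fitted, where the difference was 0.96.

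The second fall at that pseudocount was in NW_017843712.1 from base 4764681 to 4867072, a locus of 102392 bases near the lower bound of level. It ran from 0.0466 to 1.59 FPKM in July 2016 with a median of 0.275, and from 0.789 to 5.63 FPKM in June 2017 with a median of 1.75. The groups overlapped between 0.789 and 1.59 FPKM. The difference was -1.18 on the log2(FPKM + 1) scale (SE 0.232, adjusted p = 0.00261, limma). With a pseudocount of 0.1 it was -2.37, beside -1.31 for the 144171-base locus, so the order of these 2 falls turned. A pseudocount of 1 shrinks differences of low loci.

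**Figure D4:**
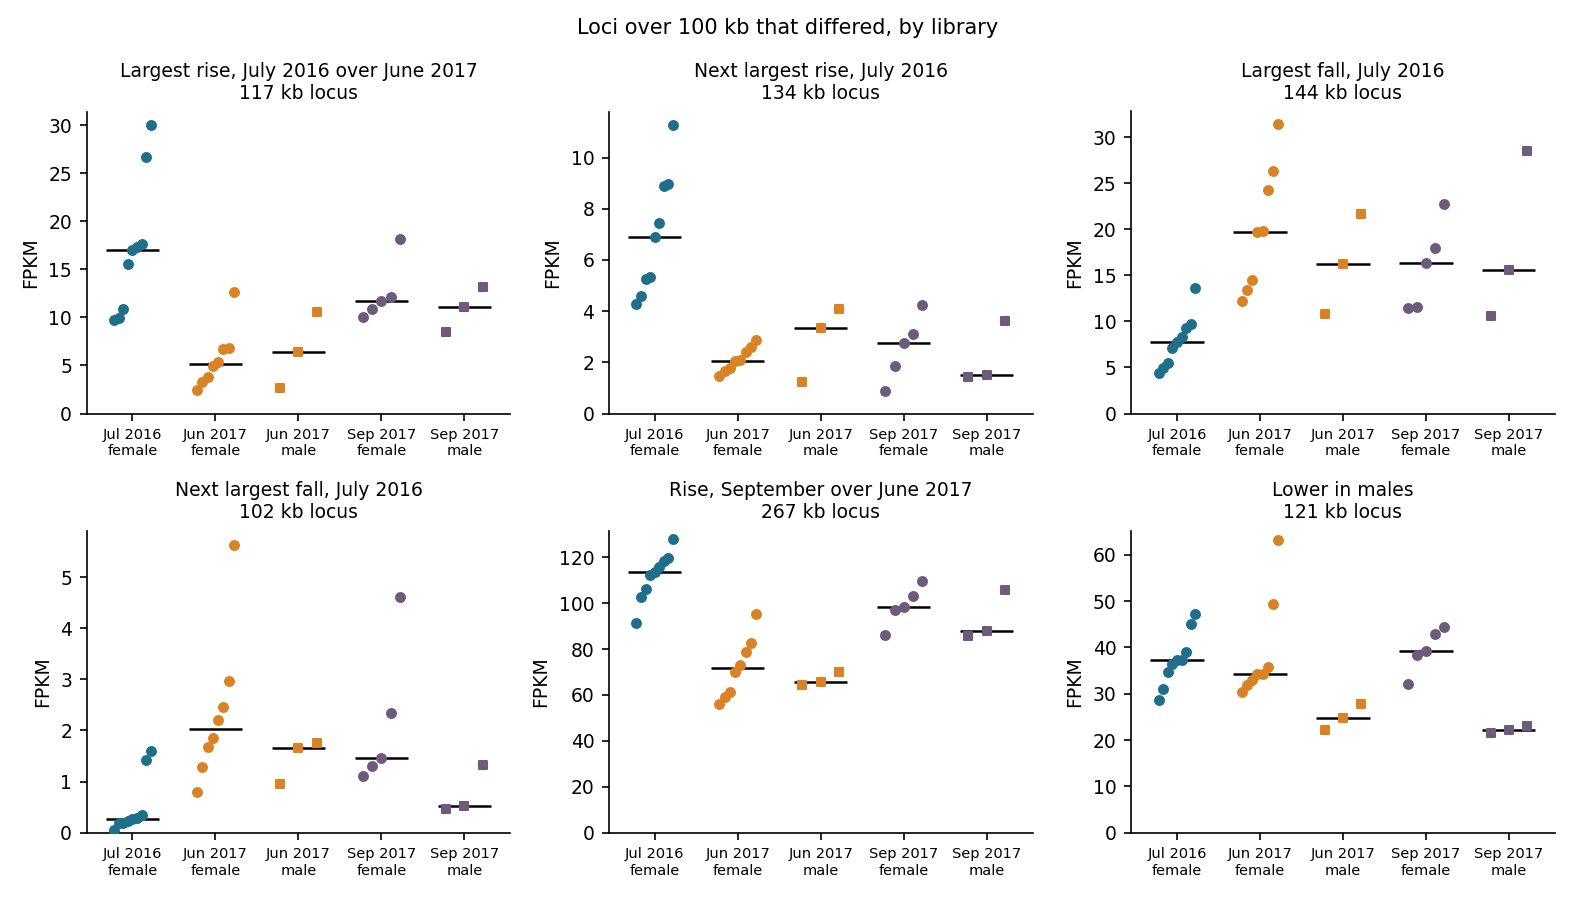
FPKM in each library (vertical) for 6 named long loci by session and sex (horizontal), in order of value within a group, with a line at each group's median. For the 134105-base locus every July 2016 library is above every June 2017 library, and for the 144171-base locus the July 2016 libraries lie mostly below those of both 2017 sessions.

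Without any overlap between the libraries of the sessions, 7 long loci (0.471%) were higher in July 2016 than in June 2017, against 0.364% of all loci tested, and 1 (0.0673%) was lower, against 0.0379%. All 8 were also called by limma. 13.5% of the 319 long loci at 20 to 100 FPKM were called, 5.71% of the 683 at 5 to 20 FPKM and 6.61% of the 484 at 1 to 5 FPKM. The matching shares of all loci tested were 9.84%, 5.66% and 4.82%. Calls made up 7.31% of the long loci that overlapped another locus (37 higher, 9 lower) and 7.93% of those that overlapped none (54 higher, 14 lower). Of the 46 called loci with an overlap, 20 had an overlapping locus that was tested, and in 0 cases was that locus called in the same direction by limma. With 5.06% of all loci tested called higher and 2.18% lower, 0 of 20 is near the background. In September 2017 minus July 2016 it was 0 of 5, and for the slope with the mitochondrial level, described below, 2 of 20.

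The median difference between July 2016 and June 2017 moved with interval length. It was -0.02 on the log2 scale for loci up to 5 kb, 0.01 for 5 to 20 kb, 0.05 for 20 to 50 kb, 0.07 for 50 to 100 kb and 0.08 for the long loci. With median-of-ratios scaling the long loci had 0.04 and loci up to 5 kb -0.06, so the class from 5 to 20 kb changed sign, while the order of the classes was the same under both. Within the long loci there was no such order, with 0.09 at 100 to 150 kb, 0.08 at 150 to 200 kb, 0.07 at 200 to 300 kb and 0.10 over 300 kb. In single libraries, the median deviation of the long loci minus that of loci up to 5 kb ran from -0.11 to 0.19 in July 2016 with a middle value of 0.08. It ran from -0.17 to 0.12 in June 2017 with a middle value of -0.03, so the sessions overlapped widely. Relative depth was 1.04 ± 0.173 in July 2016 (SD, n = 9) and 0.924 ± 0.142 in June 2017 (n = 11). Over the other settings run, 1 of which had relative depth as a covariate, the median of the long loci ran from 0.042 to 0.0954. The part of depth in the order of the length classes was not tested.

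**Figure D5:**
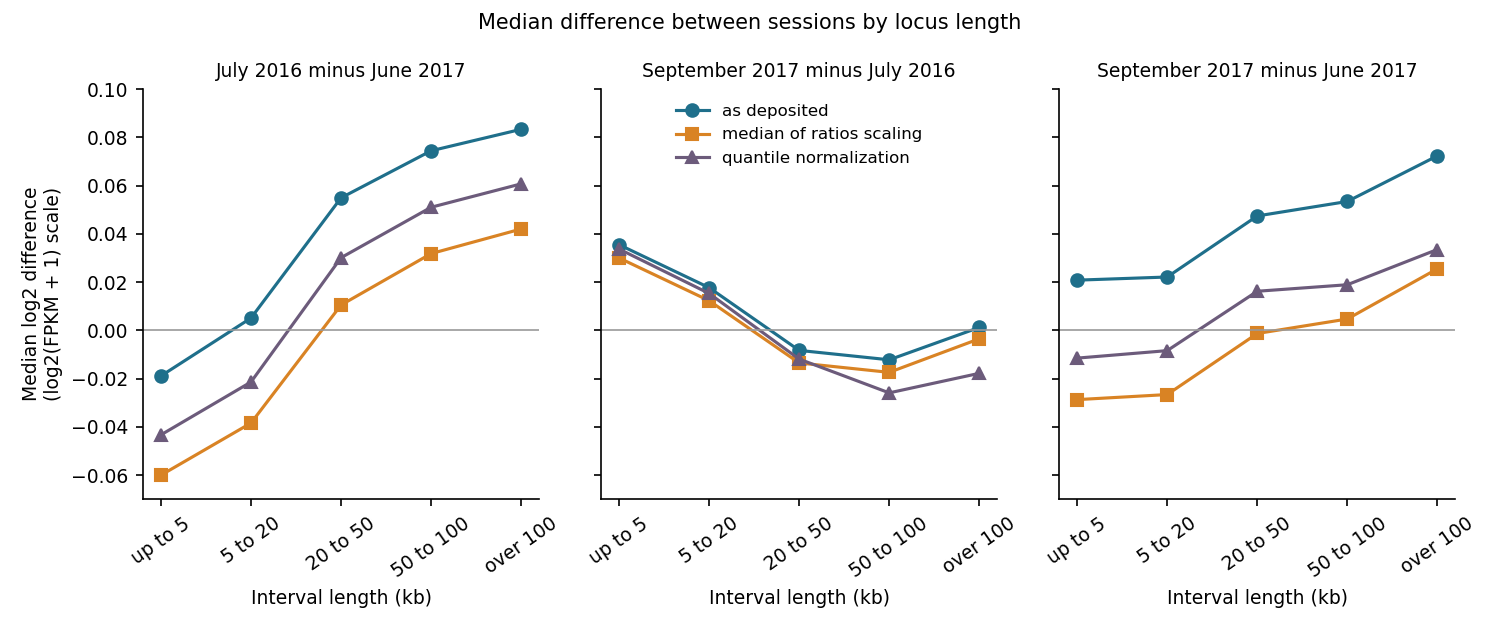
Median log2 difference between sessions (vertical, log2(FPKM + 1) scale) by interval length in kb (horizontal), for values as deposited and under 2 other scalings. In July 2016 minus June 2017 the median is -0.02 up to 5 kb and 0.08 over 100 kb as deposited.

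September 2017 against July 2016 called fewer long loci. There were 12 higher and 17 lower in September 2017, together 1.95% of the long loci and the same 1.95% of all loci tested (0.652% higher, 1.3% lower). The median difference of the long loci was 0.00 on the log2 scale. Median-of-ratios scaling gave 13 higher and 25 lower long loci, beside 110 higher and 214 lower of all loci tested (2.46%). Quantile normalization gave 11 higher and 19 lower long loci, beside 116 higher and 129 lower of all (1.86%). Of the 319 long loci at 20 to 100 FPKM, 4 were higher and 11 lower (4.70%), beside 22 higher and 75 lower of the 3709 loci tested at that level (2.62%). Long loci that overlapped another locus had 2 higher and 8 lower calls (1.59%), and those that overlapped none 10 higher and 9 lower (2.22%). Both shares were near the 1.95% of all loci tested, and the calls are too few to compare directions.

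The largest rise in September 2017 was in NW_017843879.1 from base 5602331 to 5922412, a locus of 320082 bases. It ran from 1.44 to 7.70 FPKM in July 2016 with a median of 3.82, and from 3.41 to 11.7 FPKM in September 2017 with a median of 7.91, with overlapping ranges. The difference was 1.05 on the log2 scale (SE 0.257, adjusted p = 0.0306, limma). The call was lost in females only (0.98), with only the sessions compared (0.98), without the 3 libraries whose 10 most abundant loci took the largest share (0.99), and without July 2016 female 1 (0.99), July 2016 female 4 (0.93), September 2017 female 1 (1.01), female 2 (0.97) or female 5 (1.03). The June 2017 libraries of this locus ran from 3.13 to 13.2 FPKM with a median of 7.88.

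The second fall, after the 134105-base locus described above, was in NW_017843730.1 from base 1185202 to 1319356, a locus of 134155 bases. It ran from 29.8 to 56.8 FPKM in July 2016 with a median of 45.0, from 15.9 to 33.2 FPKM in September 2017 with a median of 23.4, and from 15.8 to 37.4 FPKM in June 2017 with a median of 30.1. September minus July was -0.90 on the log2 scale (SE 0.171, adjusted p = 0.00615, limma). July minus June, which shares the July libraries, was 0.67 (adjusted p = 0.00867, limma). The locus partly overlaps another of mean 0.749 FPKM. With no overlap between libraries, 3 long loci (0.202%) were higher in September 2017, against 0.0834% of all loci tested, and 4 (0.269%) were lower, against 0.318%.

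September 2017 against June 2017 called a single long locus, and none fell by limma. At an unadjusted p under 0.05 there were 174 higher and 19 lower long loci, or 13.0%, beside 1107 higher and 473 lower of all loci tested, or 12.0%. That split depended on scaling: median-of-ratios gave 107 higher and 62 lower long loci beside 692 higher and 918 lower of all loci. Quantile normalization gave 118 higher and 47 lower long loci beside 838 higher and 710 lower of all loci (11.7%). The background was 5 calls of 13192 (0.0379%, of which 0.0303% higher). The called locus was NW_017844625.1 from base 16899390 to 17166714, of 267325 bases. It ran from 55.9 to 95.2 FPKM in June 2017 with a median of 69.9, from 85.5 to 109.7 FPKM in September 2017 with a median of 97.7, and from 91.2 to 127.9 FPKM in July 2016 with a median of 113.7. June libraries were lowest, with 1 of them, June 2017 female 7 at 95.2 FPKM, inside the September range. The difference was 0.47 on the log2 scale (SE 0.0856, adjusted p = 0.0337, limma). July minus June was 0.64 (SE 0.0859, adjusted p = 4.92e-05, limma). The September call was lost with median-of-ratios scaling (0.41), with relative depth as a covariate (0.43), in females only (0.47), with only the sessions compared (0.47), and without June 2017 female 2 (0.45), female 8 (0.47) or male 1 (0.46), or without September 2017 female 4 (0.47), female 5 (0.44), male 1 (0.48) or male 3 (0.44). The median difference of the long loci was 0.07 on the log2 scale and that of all loci tested 0.04. It was 0.06 at 100 to 150 kb, 0.07 at 150 to 200 kb, 0.08 at 200 to 300 kb and 0.11 over 300 kb. With median-of-ratios scaling the long loci had 0.03, all loci tested -0.01, long loci of 100 to 150 kb 0.01 and those over 300 kb 0.06.

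Between the sexes, 3 long loci fell in males and none rose by limma, with 25 higher and 37 lower (4.17%) at an unadjusted p under 0.05, beside 267 higher and 373 lower of all loci tested (4.85%). With median-of-ratios scaling that unadjusted split was 31 higher and 22 lower long loci, beside 361 higher and 254 lower of all loci tested (4.66%). As deposited, all loci tested gave 12 adjusted calls (0.091%), of which 0.0834% were lower. The male libraries were all from 2017, and session was a term of the fit. In NW_017842725.1 from base 2888174 to 3008743, 120570 bases long, the 6 males ran from 21.5 to 27.7 FPKM with a median of 22.7 and the 22 females from 28.7 to 63.1 FPKM with a median of 36.8. The difference was -0.68 on the log2 scale (SE 0.123, adjusted p = 0.00968, limma). In NW_017843730.1 from base 3128473 to 3256437, 127965 bases long, males ran from 7.88 to 10.1 FPKM with a median of 9.45 and females from 11.8 to 18.1 FPKM with a median of 14.6. The difference was -0.57 (SE 0.0829, adjusted p = 0.000351, limma). This call held under every alternative that kept the locus, but leaving out overlapping loci removed it from the count. Each of these intervals holds 1 other locus, with means of 0.0829 and 0.0466 FPKM.

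The third, named after its values were seen, was in NW_017843730.1 from base 6176319 to 6373618, 197300 bases long. Males ran from 7.93 to 11.1 FPKM with a median of 9.58 and females from 12.1 to 20.6 FPKM with a median of 15.1. The difference was -0.55 on the log2 scale (SE 0.0980, adjusted p = 0.00968, limma). In all 3 loci every male was below every female, which held for 0.202% of the long loci and for 0.0531% of all loci tested. Without June 2017 male 3 only the 127965-base locus kept its call, with differences of -0.66 for the 120570-base locus and -0.49 for the 197300-base locus. The scaffolds were not placed on chromosomes here.

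The mitochondrial RNA level varied between animals, from 1.27% to 5.02% of summed FPKM, and the sessions overlapped in it. The slope of each locus with that level was fitted beside session and sex, as the log2 change for each doubling of summed mitochondrial FPKM. Of the long loci, 68 rose and 39 fell with it (limma, adjusted p under 0.05), together 7.20%. All loci tested were called at 14.4%, with 6.01% rising and 8.41% falling. By length the share called was 17.7% up to 5 kb, 15.4% at 5 to 20 kb, 12.2% at 20 to 50 kb and 9.42% at 50 to 100 kb. Among the long loci it was 1.86% at 1 to 5 FPKM, 7.17% at 5 to 20 FPKM and 15.4% at 20 to 100 FPKM. At those levels all loci tested were called at 4.19%, 12.0% and 22.7%. By length within the long loci, 32 rose and 24 fell at 100 to 150 kb (7.99%). At 150 to 200 kb 13 rose and 8 fell (6.89%), and at 200 to 300 kb 10 and 5 (5.86%). Of the 224 over 300 kb, 13 rose and 2 fell (6.70%), too few calls to compare directions. Of the calls among long loci, 63.6% rose as deposited, beside 41.7% of those among all loci tested. With quantile normalization 77.1% rose (101 rising, 30 falling), beside 49.6% among all loci (1003 rising, 1018 falling, 15.3% called). Mitochondrial and other values of a library share 1 scaling, and its part in these slopes was not tested.

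The steepest rise was in NW_017842414.1 from base 2903852 to 3017206, a locus of 113355 bases. It ran from 1.18 FPKM in July 2016 female 1 to 52.6 FPKM in September 2017 female 4, with a median of 21.5. Mitochondrial shares of those libraries were 1.89% and 4.28%. The lowest share, 1.27% in July 2016 female 2, went with 13.3 FPKM. June 2017 female 4, at a share of 1.90%, was also low, at 1.87 FPKM. The next lowest library, July 2016 female 6, was at 8.86 FPKM. The slope of the locus was 1.30 (SE 0.298, adjusted p = 0.00366, limma). It stayed between 1.08 and 1.44 when each library was left out in turn, which never removed both low libraries together. The second rise was in NW_017843983.1 from base 27260892 to 27662428, 401537 bases long, from 4.28 to 19.5 FPKM with a median of 7.06 and a slope of 0.73 (SE 0.10, adjusted p = 1.38e-05, limma). That interval holds 1 other locus.

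The steepest fall was in NW_017842632.1 from base 1049283 to 1190203, a locus of 140921 bases, from 3.31 to 17.1 FPKM with a median of 7.67. Its slope was -0.67 (SE 0.116, adjusted p = 0.00023, limma). The interval holds 10 other loci. One of them, from base 1113927 to 1118775, averaged 587 FPKM with a slope of -0.16 (adjusted p = 0.115, limma). Another, from base 1169089 to 1181013, averaged 5.49 FPKM and rose, with a slope of 0.64 (adjusted p = 3.48e-06, limma). The second fall was in NW_017844689.1 from base 226907 to 337293, 110387 bases long, from 2.08 to 13.2 FPKM with a median of 6.03. Its slope was -0.61 (SE 0.184, adjusted p = 0.0244, limma). That call was lost in females only (-0.54), without the 3 libraries whose 10 most abundant loci took the largest share (-0.57), and without July 2016 female 2 (-0.60) or female 5 (-0.58), June 2017 female 7 (-0.55), or September 2017 female 5 (-0.57) or male 3 (-0.56).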

How the data were processed

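Per the labels' protocols, total RNA of archived skin was purified on lipid-tissue columns, treated with DNase and turned into directional libraries. The authors deposited 1 table of FPKM values per locus for 28 libraries. The submitters' processing notes name Cufflinks 2.2.1, TopHat2 2.1.1, Bowtie, Trimmomatic 0.33 and FastQC 0.1. The genome was NIST Tur_tru v1, per the series' design text. Annotation, strand use and settings: not given in the sources used here. Read totals are unknown, so no counting interval is given.

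Values were tested as log2(FPKM + 1) with limma 3.58.1 in R 4.3.3 (trend and robust options), with session and sex as terms, over all 28 libraries and the 13192 loci averaging 1 FPKM or more. All 1486 long loci passed that filter, because their definition sets it. p-values were Benjamini-Hochberg adjusted over all loci tested, with a threshold of 0.05 and 24 residual degrees of freedom. The mitochondrial level was the sum of 12 mitochondrial loci of at least 500 bases. Named loci were the 2 largest rises and the 2 largest falls among calls in each comparison, with the 3 longest and the 2 extremes of level, spread and distance to the length bound. The long loci, the length and level classes and the tests were chosen with earlier results of these data known. The fits were tested on simulated data. Alternatives were pseudocount, filter, scaling, covariates, subsets of libraries, overlap and leaving out each library. Positions are counted from 1. Library replicate numbers only name samples. Each library is a different animal.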

Additional observations from a re-analysis of the deposited data

Results flagged for a closer look

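For 27 named long loci, 2 loci just under the length bound and 2 summaries of the long loci, 93 groups of 4 to 10 libraries were examined for a library far from the others. There were 6 marks, all in named long loci. Chance marks about 1 group in 20, but the named loci were chosen from these same values. That rate therefore does not apply to them, and the marks are a description only. The groups of 3 males were not examined. In NW_017843453.1 from base 2134108 to 2251028, June 2017 female 8 was at 12.7 FPKM with the next highest June 2017 female at 6.77, and September 2017 female 5 was at 18.2 FPKM with the next at 12.1. In NW_017843712.1 from base 4764681 to 4867072, June 2017 female 6 was at 5.63 FPKM with the next at 2.96. In the longest locus, NW_017844144.1 from base 7365239 to 8747393, September 2017 female 3 was at 5.66 FPKM with the next at 1.73. In NW_017843107.1 from base 367149 to 509467, July 2016 female 9 was at 455 FPKM with the next at 39.3. That locus was named for a large coefficient that rested on the same library, so its mark adds nothing. In NW_017842359.1 from base 4308392 to 4413986, July 2016 female 1 was lowest at 11.7 FPKM with the next lowest at 14.5.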

How the results depend on the processing

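None of the named loci changed direction in the comparisons that named them, under the alternatives run. The medians of the long loci for September 2017 minus July 2016, for sex and for the mitochondrial slope lay near 0 and took both signs: -0.0207 to 0.0025, -0.0374 to 0.0009 and -0.0089 to 0.0265 over the other settings, and -0.0136 to 0.0104, -0.0637 to 0.003 and -0.006 to 0.0112 when each library was left out. The call counts that follow are of long loci only, and the matching counts of all loci tested are not given for these settings. A change in them is therefore no result about long loci in particular. In July 2016 minus June 2017, calls numbered 73 with only the sessions compared, 68 without overlapping loci, and 90 to 117 when each library was left out. Over all the other settings they ran from 68 to 145. In September 2017 minus July 2016 they numbered 15 in females only, 10 with only the sessions compared, 19 without overlapping loci, and 18 to 33 when each library was left out (19 without September 2017 female 2, 19 without female 4, 18 without female 5). Over all the other settings they ran from 10 to 38. In September 2017 minus June 2017 they numbered 0 in females only and with relative depth as covariate, 2 with the mitochondrial level as covariate, 1 (lower in September) with median-of-ratios scaling, 3 without the 3 libraries with the largest share in 10 loci or without July 2016 female 6, whose title year differs from its date, and 0 to 4 when each library was left out: 0 without June 2017 female 2 or 8 or September 2017 female 4, 5 or male 1, 2 without June 2017 female 7 or September 2017 female 1, 3 without July 2016 female 1, 2, 4 or 6, June 2017 female 6 or September 2017 female 2, and 4 without June 2017 male 2. Between the sexes they numbered 1 without those 3 libraries, 1 without overlapping loci, and 1 to 4 when each library was left out (1 without June 2017 male 3). With the mitochondrial level they numbered 62 without overlapping loci and 89 to 123 when each library was left out. Over all the other settings they ran from 62 to 131. The causes were not tested, except that leaving out overlapping loci leaves fewer loci to call. The median difference of the long loci in July 2016 minus June 2017 ran from 0.042 to 0.0954 over the other settings and from 0.0708 to 0.094 when each library was left out, and that in September 2017 minus June 2017 from 0.0255 to 0.0853 and from 0.0569 to 0.09. No paired analysis was possible because the replicate numbers only name libraries of different animals. Read totals are unknown, which limits what can be said of low loci.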
